A study of Mus musculus with 26 samples.

Results

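The choroid is the vascular bed behind the retina that supplies the photoreceptors and the retinal pigment epithelium (RPE). Its innermost layer, the choriocapillaris, is a sheet of wide, fenestrated capillaries that lies directly under the RPE and depends on it for growth signals. Endothelial cells (ECs) of different organs share a core of genes and differ in others, so the genes that set choroidal ECs apart are often sought by sorting ECs from several organs and comparing their transcripts. The RPE itself is a pigmented epithelium known for the visual cycle, the enzyme pathway that regenerates the light-sensing chromophore, and melanocytes and fibroblast-like stromal cells fill the space between the choroidal vessels.

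The genes described here are the 99 genes of the study's choroidal EC signature, of 19922 genes named in the tables of the series. The study took ECs from RPE/choroid, neural retina, lung, liver and heart of B6129PF1/J mice that were 30 d old (1 month in the labels), after staining vessels in the living animal with an antibody to VE-cadherin, digestion and cell sorting, in 3 isolations per tissue. Each isolation pooled both eyes of 7 mice for RPE/choroid and neural retina and came from 1 mouse for lung, liver or heart. The 12 libraries of the other 4 tissues belong to the series, 3 per tissue, of 26 samples in all. The libraries of sorted choroidal ECs are not among these samples, and only their average was used here. The study reports that bulk data of mouse choroidal ECs were released with an earlier publication. Whether the choroid differs from the other tissues through separate processing was not tested. A gene entered the table if its choroidal average was at least 1 FPKM (fragments mapped to a transcript, scaled by its length and by the depth of the library) and at least 5 times its average in every other tissue with an adjusted p under 0.05, so the excess in the choroid is how the genes were chosen and is not a finding. The table holds 1 average per tissue and no value of a single library. The differences below therefore carry no error and no test, and neighboring tissues in an order may not differ beyond their spread.

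The 99 genes were then read in data of single cells that the selection did not use. Single-cell RNA sequencing (scRNAseq) of dissociated RPE/choroid gave 1 library from B6129PF1/J mice, the strain of the sorted ECs, with 3637 cells and 17168578 unique molecular identifiers (UMIs), and 1 from C57BL/6J mice with 3928 cells and 15230413 UMIs. Both were 90 d old (3 months in the labels), and each library pooled 2 eyes. The authors assigned the cells to 13 clusters, which were grouped here as RPE (cluster 1), ECs (clusters 2, 3 and 4, named *Kdr* high, medium and low in the study), stromal cells (5 to 8), smooth muscle (9), melanocytes (10), hematopoietic cells (11) and Schwann cells (12 and 13). In both libraries all 9 EC markers, all 6 stromal markers, all 4 smooth muscle markers and all 6 melanocyte markers were highest in their own class, as were 7 of 8 RPE markers and 5 of 6 Schwann markers. Of 6 hematopoietic markers, 4 did so in B6129PF1/J and 6 in C57BL/6J, and pericyte markers were highest in stromal cluster 6 or in smooth muscle. The melanocyte cluster held only 16 and 26 cells. Cell totals and most cluster sizes here are not those the study prints for the same cluster numbers, so memberships may differ. There were 22 cell barcodes common to both libraries. With 1 library per strain there is no test between strains or clusters. Intervals are exact Poisson 95% intervals, which cover counting error only.

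The 99 genes hold none of the 9 EC markers, and none of the lists for photoreceptors, retinal neurons and glia, hepatocytes, cardiomyocytes or lung epithelium, so the identity of each sorted population was not tested here. They hold 3 of 8 RPE markers (*Rpe65*, *Rgr* and *Rdh5*) and 2 of 6 melanocyte markers (*Pmel* and *Tyr*), and none of the stromal, pericyte, smooth muscle, hematopoietic or Schwann markers. They also hold *Ihh* and *Gli1* of 14 Hedgehog pathway genes, *Eya1* and *Alx4*, among other transcription factors of the periocular mesenchyme, and *Dlk1* and *Rtl1* of 6 genes of the imprinted *Dlk1*-*Meg3* domain.

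After the choroid, ECs of the neural retina had the next highest average for 47 of the 99 genes, lung ECs for 24, heart ECs for 23 and liver ECs for 3. *Gip* and *Ins2* were listed at 0 in all 4 tissues. Liver ECs were lowest of the 4 for 59 genes, against 14 for heart, 6 for neural retina and 3 for lung, and 17 genes were tied for lowest. A value of 0 was listed for 35 genes in liver, 19 in heart, 12 in lung and 5 in neural retina. The order behind the choroid was often close. The next tissue was at least 2-fold above the third, or the third was at 0, for 52 of 97 genes, and it was less than 1.2-fold above it for 18. The study's minimum of 5-fold was met most narrowly by *Wipf3* (5.07-fold over heart), *Edn3* (5.08-fold over neural retina), *Ccl7* (5.13-fold over lung), *Gm10941* (5.21-fold over neural retina) and *Rhbdl2* (5.27-fold over neural retina). Genes outside the minimum are not in the table. The widest margins were those of *Robo3* (791-fold), *Ihh* (343-fold), *Col10a1* (227-fold), *Dlk1* (147-fold) and *Fbln7* (74.2-fold), each over a next tissue of 0.142 FPKM or less.

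**Figure D1:**
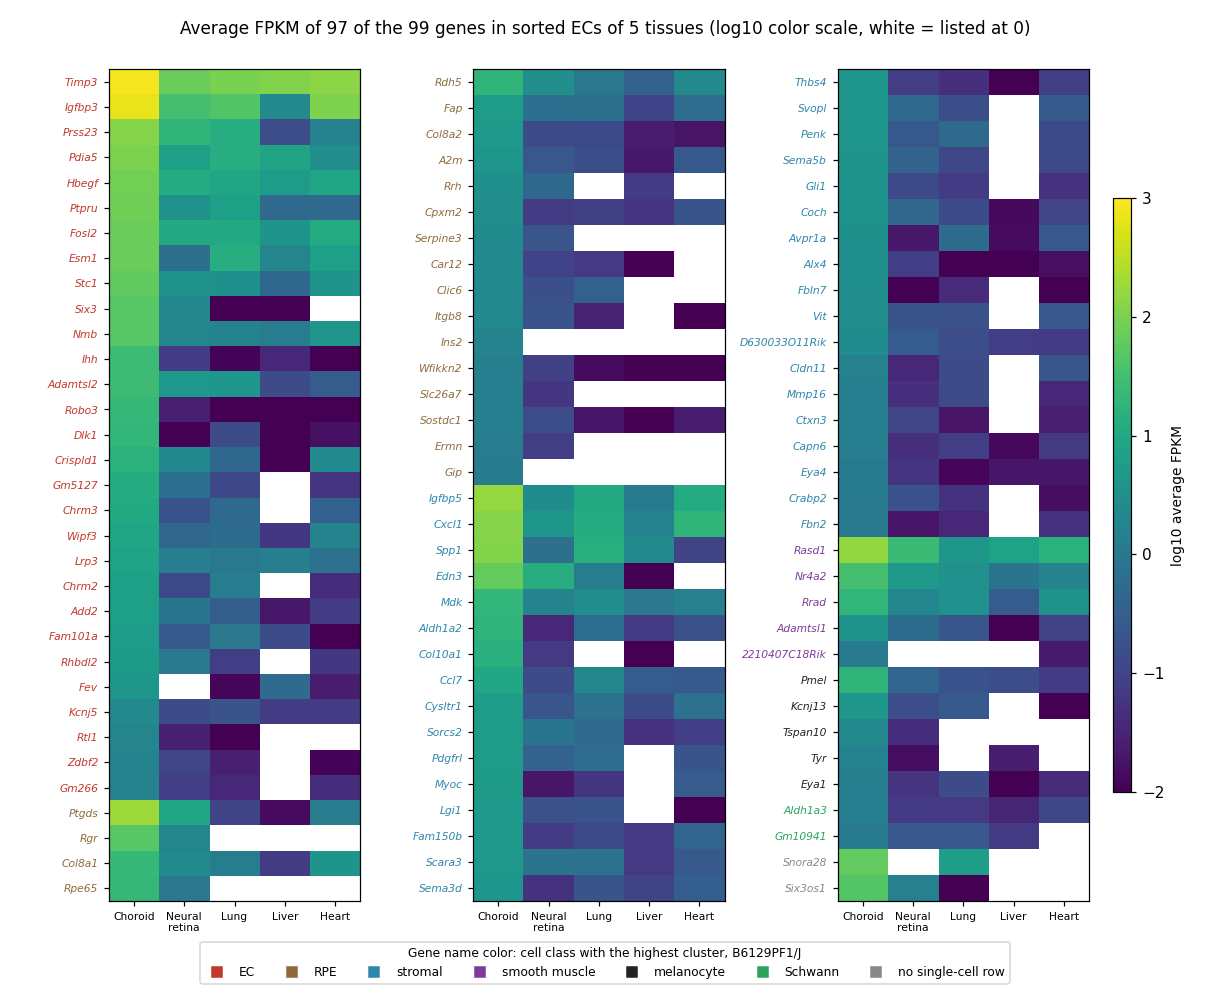
Average FPKM of 97 of the 99 genes (rows, in 3 panels) in sorted ECs of 5 tissues (columns), on a log10 color scale that saturates at its ends, with white for averages listed at 0. Gene names are colored by the cell class of their highest scRNAseq cluster in B6129PF1/J, and the white and darkest cells gather in the liver column, where 35 of all 99 genes were listed at 0.

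In the B6129PF1/J cells, 68 of the 97 genes with scRNAseq counts (70.1%) had their highest level, in UMIs per 10,000 UMIs of a cluster, outside EC clusters 2 to 4. Over all 15960 genes counted in that library the share was 77.6%, so the count alone does not set these genes apart. Their distribution between the extremes did differ from that of all genes. The exact intervals of the highest EC cluster and the highest other cluster were apart for 65 genes that were highest outside (67.0%, against 28.6% of all genes) and for 23 genes that were highest in ECs (23.7%, against 4.81%). In C57BL/6J these were 64 genes (66.0%, against 29.0%) and 21 genes (21.6%, against 4.65%). Genes with few UMIs, whose intervals are wide, are part of the background, so these shares are not matched for depth. They were not computed at a minimum of UMIs. Among genes with at least 20 UMIs, 76.7% of all genes in B6129PF1/J and 77.8% in C57BL/6J were highest outside EC clusters. In C57BL/6J, 71 genes (73.2%) were highest outside EC clusters, against 78.8% of all genes. The call of EC or outside was the same in both libraries for 92 of 97 genes and the class was the same for 90.

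The share of a gene's summed cluster levels that fell in the 3 EC clusters ranged from 0 to 100% in B6129PF1/J. It exceeded 50% for 22 genes (22.7%) in B6129PF1/J, against 8.52% of all genes, and for 24 genes (24.7%) in C57BL/6J, against 8.34%. Among genes with at least 20 UMIs, the share was under 5% for 52 of 96 (54.2%), where 14.2% of all 13160 genes were that low, and over 60% for 21 (21.9%), where 4.55% of all genes were that high. The other 23 lay between these limits. The limits of 5% and 60% were set after the distribution was seen. In C57BL/6J the same limits gave 55 genes (57.9%, against 14.0%) and 21 genes (22.1%, against 4.66%). The median share was 4.04% for these genes and 22.8% for all genes.

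**Figure D2:**
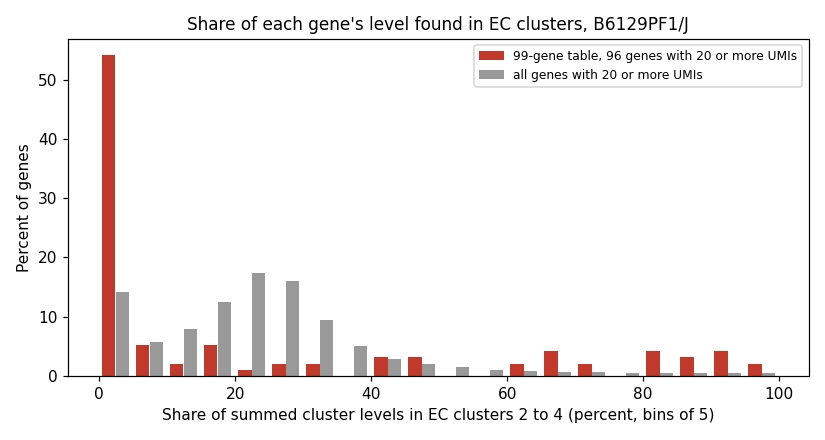
Share of each gene's summed cluster levels found in EC clusters 2 to 4 in B6129PF1/J (x axis, percent, bins of 5) against the percent of genes in the bin (y axis), for 96 genes of the choroidal EC table (red) and all 13160 genes (gray) with at least 20 UMIs. The tallest red bar is that under 5%, with 54.2% of genes, while the gray bars peak at 20 to 25%. The 21.9% of red genes over 60% are spread over several low bars.

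By highest cluster in B6129PF1/J, 36 genes were stromal (37.1%, against 21.0% of all genes), 29 EC (29.9%, against 22.4%), 20 RPE (20.6%, against 8.78%), 5 smooth muscle (5.15%, against 5.63%), 5 melanocyte (5.15%, against 11.8%), 2 Schwann (2.06%, against 21.3%) and none hematopoietic (against 9.09%). In C57BL/6J, 36 were stromal (against 22.0%), 26 EC (against 21.2%), 20 RPE (against 8.89%), 5 smooth muscle (against 5.67%), 5 melanocyte (against 11.6%), 5 Schwann (against 20.9%) and none hematopoietic (against 9.69%). The values of each class follow, with the 5 tissue averages, the cluster levels and a further bulk measurement. That measurement is the average FPKM of whole RPE/choroid tissue of *Ihh*+/+ mice on a C57BL/6J background, 6 months old and 12 weeks after tamoxifen by the labels (n = 3), in a separate table. These mice carry Cre-ERT2 under the EC-specific *Cdh5* promoter with both *Ihh* alleles intact. Sorted ECs and tissue differ in age, strain and preparation and were normalized separately, so a common factor of scale would shift all ratios between them alike. A ratio of 1 is used below only as a fixed mark against which the classes are counted. The choroidal average in each ratio is also the value by which the genes were chosen, which favors high ratios. It was available for the chosen genes only, so no share over all genes stands beside these counts. In bulk RNA, fewer cells of a type and less RNA per cell cannot be told apart.

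**Figure D3:**
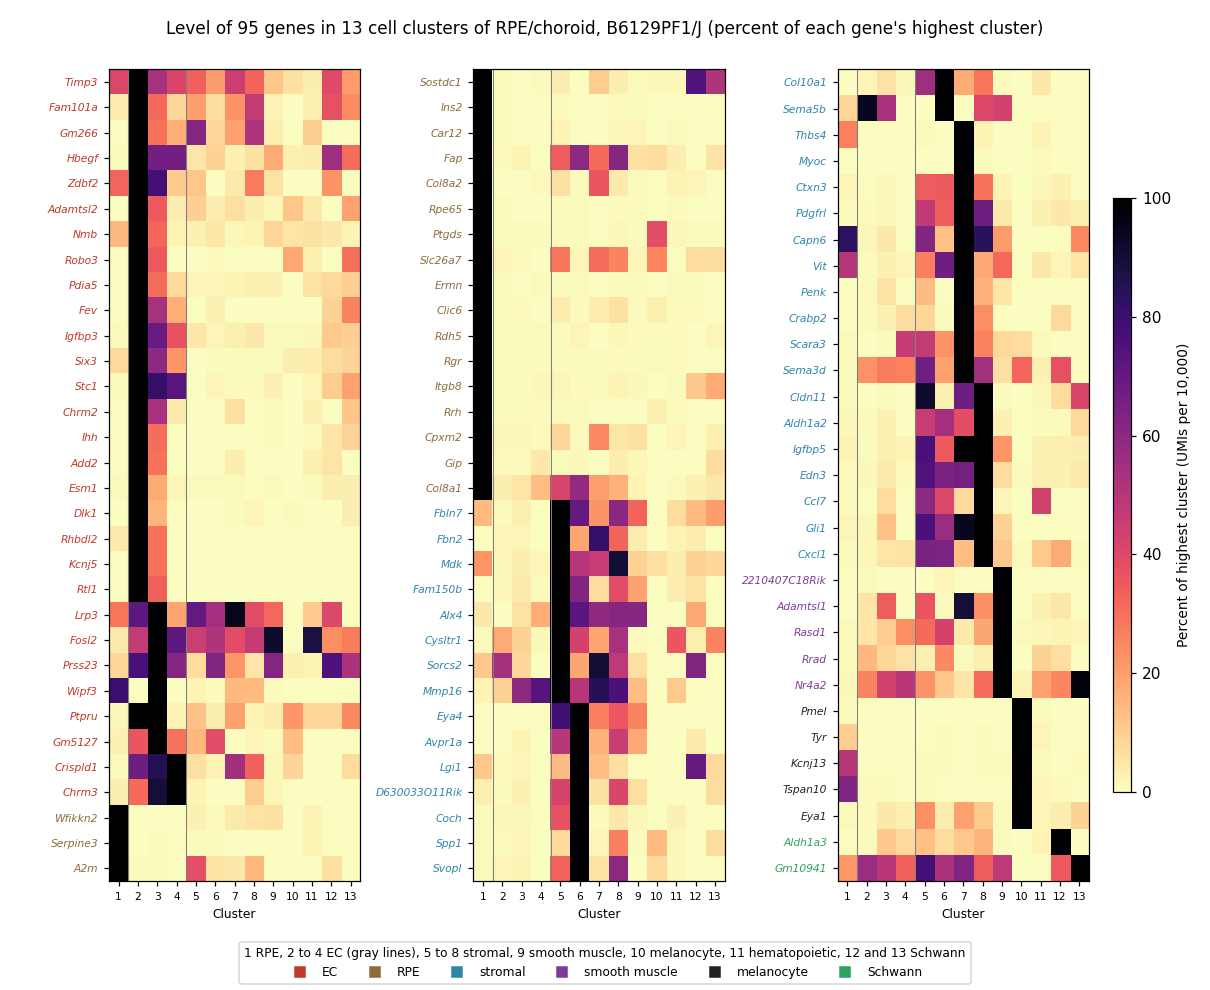
Level of 95 of the 97 genes (rows, in 3 panels) in 13 scRNAseq clusters (columns) of the B6129PF1/J library, as a percent of the gene's highest cluster, with gene names colored by class and gray lines around EC clusters 2 to 4. EC genes were mostly darkest in cluster 2 (21 of 29), and the 20 RPE genes were nearly all pale in the EC columns.

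Of the 29 genes highest in ECs, 21 peaked in the *Kdr* high cluster 2, 6 in cluster 3 and 2 in cluster 4. The most abundant were *Timp3*, a matrix metalloproteinase inhibitor, and *Igfbp3*, a carrier of insulin-like growth factors. *Timp3* (chromosome 10, 86300372 to 86349506 in mm10, overlapping *Syn3* on the opposite strand) averaged 845 FPKM in choroidal ECs, 138 in heart, 112 in liver, 97.1 in lung and 71.0 in neural retina. It was high in every EC bed and spread widely over cell types, with 59.2 UMIs per 10,000 in cluster 2 (58.1 to 60.3), 26.8 in stromal cluster 7 and an EC share of 43.4%. *Igfbp3* (chromosome 11, 7206086 to 7213923) averaged 684 FPKM in choroid, 106 in heart, 43.8 in lung, 33.1 in neural retina and 2.42 in liver. Unlike *Timp3* it was concentrated in ECs, with 16.8 UMIs per 10,000 in cluster 2 (16.3 to 17.4) and an EC share of 84.3% (90.9% in C57BL/6J).

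*Ihh* (chromosome 1, 74945315 to 74951672), the Indian hedgehog ligand, averaged 26.4 FPKM in choroid, 0.077 in neural retina, 0.038 in liver, 0.011 in lung and 0.005 in heart. Its cluster 2 level was 3.20 UMIs per 10,000 (2.95 to 3.47) in B6129PF1/J and 3.36 (3.10 to 3.63) in C57BL/6J. *Robo3* (chromosome 9, 37415669 to 37433246), a receptor of the Roundabout family known from axon guidance, averaged 21.4 FPKM in choroid and 0.027 or less in the other tissues. It was rarer in cells, with 0.619 UMIs per 10,000 in cluster 2 (0.513 to 0.742), and its interval overlapped that of Schwann cluster 13, where only 2 UMIs were counted. *Hbegf*, a ligand of the EGF receptor, averaged 85.7 FPKM in choroid, 12.6 in neural retina, 9.24 in lung, 8.70 in heart and 5.69 in liver. *Esm1*, the secreted EC proteoglycan endocan, averaged 72.9 FPKM in choroid, 13.3 in lung, 6.67 in heart, 1.85 in liver and 0.691 in neural retina. Both were highest in cluster 2, with EC shares of 63.4% for *Hbegf* and 91.9% for *Esm1*.

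The remaining abundant EC genes differed in which bed came next. *Pdia5*, a protein disulfide isomerase of the endoplasmic reticulum, averaged 105 FPKM in choroid, 13.1 in lung, 8.21 in liver, 6.92 in neural retina and 2.88 in heart. *Ptpru*, a receptor-type tyrosine phosphatase, averaged 83.5 FPKM in choroid, 6.89 in lung, 3.73 in neural retina, 0.518 in liver and 0.510 in heart. *Prss23*, a serine protease, averaged 123 FPKM in choroid, 18.7 in neural retina, 12.9 in lung, 1.68 in heart and 0.154 in liver. *Pdia5* peaked in cluster 2 and *Prss23* in cluster 3, while *Ptpru* was at 1.53 UMIs per 10,000 in both and had its highest cluster exchanged between the libraries. *Stc1*, which encodes the glycoprotein hormone stanniocalcin-1, averaged 60.9 FPKM in choroid and between 0.466 and 3.94 elsewhere. *Fev*, an ETS family transcription factor, averaged 4.38 FPKM in choroid and 0.551 in liver, was listed at 0 in neural retina, and was 1 of the 3 genes for which liver came next, with *Lrp3* and *Tyr*. *Lrp3* (7.88 FPKM in choroid) had almost the same average in liver (1.39) and neural retina (1.38).

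Some members came from imprinted or overlapping loci. *Dlk1* (chromosome 12, 109452823 to 109463336), a paternally expressed Notch ligand-like gene, averaged 20.9 FPKM in choroid, 0.142 in lung and 0.017 or less elsewhere. Its level in cluster 2 was 16.2 UMIs per 10,000 (15.6 to 16.7) in B6129PF1/J and 4.53 (4.23 to 4.85) in C57BL/6J. Cluster 2 was highest and cluster 3 next in both, and no test between the strains is possible with 1 library each. *Rtl1*, a retrotransposon-derived gene of the same domain, averaged 1.87 FPKM in choroid and 0.027 or less elsewhere, and all of its 17 UMIs in B6129PF1/J and 6 in C57BL/6J lay in EC clusters. *Six3* (chromosome 17, 85613608 to 85629302), a homeobox gene of eye development, averaged 51.3 FPKM in choroid, 2.04 in neural retina and 0.010 or less elsewhere. The opposite-strand RNA *Six3os1* (85600651 to 85618398 on the same chromosome) overlaps it and averaged 45.9 FPKM in choroid and 1.53 in neural retina. The strand setting of the counting is not given in the sources used here, so reads of the overlap cannot be assigned to either gene. *Six3os1* had no scRNAseq row, and *Six3* itself was at 17.1 UMIs per 10,000 in cluster 2 (16.5 to 17.7) with an EC share of 84.6%. *Snora28*, a small nucleolar RNA (chromosome 12, 111540941 to 111541067) inside the same-strand gene *Eif5*, averaged 62.9 FPKM in choroid, 6.22 in lung and was listed at 0 in the other tissues, with no row in the cell data.

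Genes of the EC class were mostly higher in sorted ECs than in whole tissue. The ratio of the choroidal EC average to the tissue average was above 1 for 27 of 29 genes and at least 5 for 21, with a median of 9.85. It was 54.7 for *Stc1* (60.9 against 1.11 FPKM), 28.6 for *Hbegf*, 21.6 for *Igfbp3* (684 against 31.6 FPKM) and 17.3 for *Ihh* (26.4 against 1.53 FPKM). *Timp3* was near 1, at 1.29. The exceptions were *Wipf3* (0.523) and *Lrp3* (0.712), whose highest cluster also changed between libraries, to RPE for *Wipf3* and to stromal cluster 7 for *Lrp3*.

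The 20 genes highest in RPE ran the other way. They included *Rpe65*, the isomerase of the visual cycle, *Rgr* and *Rrh*, opsins of the RPE, *Rdh5*, a retinol dehydrogenase, *Ptgds*, a prostaglandin D synthase, the collagens *Col8a1* and *Col8a2*, and the hormone genes *Ins2* (insulin) and *Gip*. *Rpe65* (chromosome 3, 159599175 to 159625321) averaged 21.8 FPKM in sorted choroidal ECs and 0.979 in neural retina ECs, and was listed at 0 in lung, liver and heart. *Rgr* averaged 50.9 FPKM in choroid and 1.86 in neural retina, and was also listed at 0 in the other 3 tissues. *Ptgds* (chromosome 2, 25466709 to 25470046) averaged 183 FPKM in choroid, 8.87 in neural retina, 1.28 in heart, 0.107 in lung and 0.014 in liver. *Rdh5* averaged 18.9 FPKM in choroid, 3.00 in neural retina, 2.27 in heart, 1.02 in lung and 0.351 in liver. Neural retina came next for 13 of the 20 genes, against 12 of 29 in the EC class. Heart and lung were listed at 0 for 10 and 8 of the 20, against 2 and 0 of 29 EC genes. The RPE genes were also less abundant in choroidal ECs, with a median of 2.75 FPKM against 20.9 for EC genes. Zeros were not compared at matched levels.

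In the cell data these genes were low in ECs relative to RPE. *Rpe65* was at 57.9 UMIs per 10,000 in RPE (57.1 to 58.8) and at most 0.257 in an EC cluster (0.190 to 0.340). *Ptgds* was at 734 in RPE (731 to 737), 284 in melanocytes and at most 4.80 in an EC cluster. *Rgr* was at 157 in RPE (156 to 158) and at most 1.15 in an EC cluster. The level in the 3 EC clusters summed was a median of 0.564% of the RPE level over the 20 genes in B6129PF1/J, with a highest value of 5.13% for *Col8a1*, and a median of 0.655% in C57BL/6J. Other cell types held like levels, such as 1.75 UMIs per 10,000 of *Rgr* in hematopoietic cells (1.42 to 2.14) and 0.566 of *Rpe65* (0.385 to 0.804). Summed over the 8 RPE markers, ECs held 8.33 UMIs per 10,000 in B6129PF1/J and 6.83 in C57BL/6J. The 9 EC markers summed to 132.5 and 129.7 there. *Ttr*, 1 of the 8 RPE markers, and *Apoa1* together held 6.30 and 4.96 in ECs. A large part of the RPE marker sum may thus be *Ttr* alone, whose level was not taken separately.

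All 20 were lower in sorted choroidal ECs than in RPE/choroid tissue. The ratio ranged from 0.0121 to 0.208 with a median of 0.0349, and it was under 0.1 for 15 genes. *Rpe65* averaged 21.8 FPKM in sorted ECs against 682 in tissue (ratio 0.0320), *Rgr* 50.9 against 2653 (0.0192), *Ptgds* 183 against 10796 (0.0169) and *Rdh5* 18.9 against 862 (0.0219). *Serpine3* (0.0121) and *Clic6* (0.0214), an intracellular chloride channel protein, were also among the 5 lowest ratios. The 5 ratios of 0.1 or more were those of *A2m*, *Gip*, *Col8a1*, *Fap* and *Ins2*. *Col8a1* and *Fap* were also counted in stromal clusters, at 4.84 and 0.955 UMIs per 10,000 in cluster 6. Within the 20 genes, *Ptgds* took 54.4% of the summed FPKM in sorted choroidal ECs, 66.8% in tissue and 45.0% in neural retina ECs. *Rgr* took 15.1%, 16.4% and 9.42%, *Rpe65* 6.49%, 4.22% and 4.97%, and *Col8a1* 6.74%, 0.720% and 11.9%. Whether RPE RNA carried into the sort adds to these averages was not tested.

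**Figure D4:**
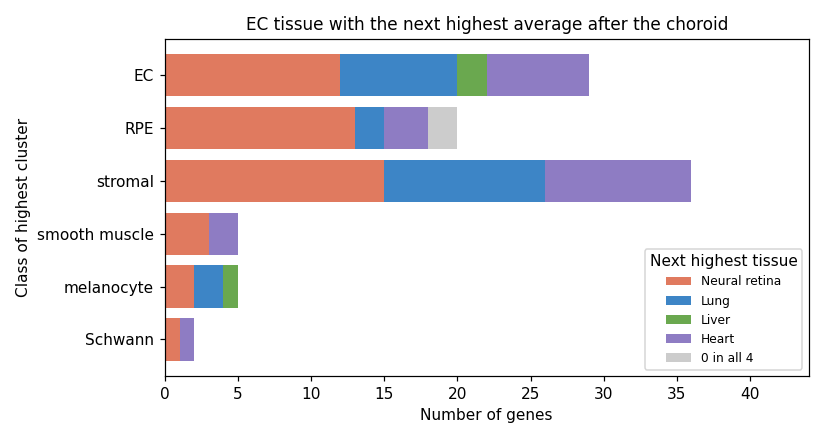
Number of genes (x axis) whose next highest EC average after the choroid was in neural retina, lung, liver or heart, for each class of highest scRNAseq cluster (y axis). Neural retina came next for 13 of 20 RPE genes and 12 of 29 EC genes, and 2 RPE genes were listed at 0 in all 4 tissues.

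All 5 genes highest in melanocytes had lower averages in sorted choroidal ECs than in tissue. Neural retina and lung came next for 2 each and liver for 1. *Pmel*, the structural protein of melanosome fibrils, averaged 18.8 FPKM in choroidal ECs, 0.435 in neural retina, 0.185 in lung, 0.153 in liver and 0.078 in heart. It was at 120 UMIs per 10,000 in the melanocyte cluster (113 to 128), 0.874 in RPE and at most 0.0315 in an EC cluster. *Tyr*, tyrosinase, the first enzyme of melanin synthesis, averaged 1.60 FPKM in choroidal ECs, 0.026 in liver, 0.015 in neural retina and was listed at 0 in lung and heart. *Kcnj13*, an inwardly rectifying potassium channel of the RPE, and *Tspan10*, a tetraspanin, were at 11.3 and 2.20 UMIs per 10,000 in RPE, below 22.5 (19.5 to 25.9) and 3.49 (2.37 to 4.96) in the small melanocyte cluster. Ratios of sorted ECs to tissue were 0.0272 for *Kcnj13*, 0.0297 for *Tspan10*, 0.0365 for *Pmel* and 0.0366 for *Tyr*. *Eya1*, a periocular transcription cofactor, was at 0.259 and rested on 9 UMIs in the melanocyte cluster.

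RefSeq promoter windows on GRCm38.p6, from 250 bases before to 50 bases after the most upstream start, were matched for 63 of the genes, among them 3 of the 5 melanocyte genes. The windows are shown because all 3 hold the M-box letters TCATGTG or their reverse complement CACATGA (capitals), bound by the pigment cell factor MITF in textbook descriptions. The letters were in 3.72% of all 27025 windows of this length and in 4 of the 63 windows (6.35%). The 4 were these 3 and that of *Myoc* among 19 stromal windows, with 0 of 14 RPE and 0 of 24 EC windows. *Kcnj13* and *Tspan10* were also counted in RPE, so the windows do not separate melanocyte from RPE genes. Over RPE and melanocyte windows together the letters were in 3 of 17 (17.6%). The first base of the match lay 22 bases before the start for *Tyr*, 21 for *Tspan10* and 112 for *Kcnj13*.
*Tyr*, chr7:87493463-87493762, minus strand: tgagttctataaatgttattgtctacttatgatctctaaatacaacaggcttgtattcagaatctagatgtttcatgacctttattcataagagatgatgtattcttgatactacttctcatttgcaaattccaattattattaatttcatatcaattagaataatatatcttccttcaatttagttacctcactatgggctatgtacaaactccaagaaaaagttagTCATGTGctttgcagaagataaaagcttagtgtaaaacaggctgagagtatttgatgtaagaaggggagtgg
*Tspan10*, chr11:120442381-120442680, plus strand: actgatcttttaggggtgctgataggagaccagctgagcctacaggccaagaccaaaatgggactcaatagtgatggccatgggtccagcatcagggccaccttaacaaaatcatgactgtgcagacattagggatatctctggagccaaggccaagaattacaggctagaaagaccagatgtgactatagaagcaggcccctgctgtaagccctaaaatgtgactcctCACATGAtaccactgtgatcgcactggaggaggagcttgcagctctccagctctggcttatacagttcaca
*Kcnj13*, chr1:87394680-87394979, minus strand: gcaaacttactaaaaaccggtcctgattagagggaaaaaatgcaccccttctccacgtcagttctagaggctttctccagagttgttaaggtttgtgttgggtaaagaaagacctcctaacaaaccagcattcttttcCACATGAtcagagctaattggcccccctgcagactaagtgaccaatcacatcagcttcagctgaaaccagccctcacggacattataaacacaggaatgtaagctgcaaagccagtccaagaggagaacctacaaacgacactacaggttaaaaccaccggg

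The ETS core letters CCGGAA or TTCCGG, searched in the same way for a family of factors active in ECs, were in 2 of 24 EC windows (*Igfbp3* and *Lrp3*, 8.33%), 4 of 19 stromal windows (21.1%) and 7 of the 63 windows (11.1%), against 15.2% of all windows. A match of letters is not evidence of binding, and none of these measurements bears on it.

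Stromal cells were the highest class for 36 genes, and these divided by cluster. Of the 10 genes highest in cluster 6, where pericyte markers such as *Pdgfrb* peaked, 9 were higher in sorted ECs than in tissue, with a median ratio of 2.67. Of the 26 genes highest in clusters 5, 7 and 8, 6 were higher, with a median ratio of 0.524. *Spp1*, the secreted phosphoprotein osteopontin, averaged 121 FPKM in choroidal ECs, 14.1 in lung, 2.52 in liver, 0.693 in neural retina and 0.107 in heart. It was at 84.1 UMIs per 10,000 in cluster 6 (82.9 to 85.4), at most 1.53 in an EC cluster, and its ratio to tissue was 0.964. *Col10a1*, a short-chain collagen, averaged 15.2 FPKM in choroidal ECs, 0.067 in neural retina, 0.003 in liver and was listed at 0 in lung and heart. It peaked in cluster 6 at 2.11 UMIs per 10,000 (1.91 to 2.31), was at most 0.120 in an EC cluster, and its ratio to tissue was 3.11. The gene lies within *Nt5dc1* on the opposite strand.

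Genes of the fibroblast-like clusters were mostly below their tissue level. *Igfbp5*, another carrier of insulin-like growth factors, averaged 160 FPKM in choroidal ECs, 11.9 in heart, 11.1 in lung, 2.75 in neural retina and 1.19 in liver. It was at 57.8 UMIs per 10,000 in cluster 8 and 57.5 in cluster 7, with overlapping intervals, and at most 1.78 in an EC cluster. *Edn3*, the peptide endothelin-3, averaged 65.7 FPKM in choroidal ECs, 12.9 in neural retina, 1.33 in lung, 0.003 in liver and was listed at 0 in heart. It was above 12 UMIs per 10,000 in each of the 4 stromal clusters and at most 0.796 in an EC cluster. *Mdk*, the growth factor midkine, averaged 20.3 FPKM in choroidal ECs and between 0.942 and 2.86 elsewhere. Ratios of sorted ECs to tissue were 0.315 for *Igfbp5*, 0.630 for *Edn3* and 0.240 for *Mdk*. *Myoc*, which encodes the secreted protein myocilin, was lowest among stromal genes at 0.0243 (5.31 against 219 FPKM), and *Fbln7* was at 0.533.

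Transcription factors of the Hedgehog and periocular lists were also found in the stromal class. *Alx4* averaged 3.08 FPKM in choroidal ECs and 0.084 or less elsewhere, and peaked in stromal cluster 5 at 0.359 UMIs per 10,000 (0.296 to 0.431). *Gli1*, a target and effector of Hedgehog signaling in receiving cells, averaged 3.58 FPKM in choroidal ECs, 0.126 in neural retina, 0.075 in lung, 0.051 in heart and was listed at 0 in liver. It was at 0.364 UMIs per 10,000 in cluster 8 (0.231 to 0.546), 0.342 in cluster 7 and at most 0.0456 in an EC cluster (0.0228 to 0.0816). The ligand gene *Ihh* was thus highest in ECs and *Gli1* in stromal cells, while both met the criteria for the choroidal EC table.

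A further set had far higher averages in sorted ECs than in tissue, in several classes. The 5 highest ratios were those of *Stc1* (54.7, EC class), *Rasd1* (42.8) and *Nr4a2* (42.5, both smooth muscle), *Cxcl1* (38.5, stromal) and *Fosl2* (35.5, EC class). *Rasd1*, a Ras-like GTPase induced by glucocorticoids, averaged 151 FPKM in choroidal ECs, 25.4 in neural retina, 15.9 in heart, 7.78 in liver and 4.50 in lung, and 3.54 in tissue. *Cxcl1*, a neutrophil-attracting chemokine, averaged 126 FPKM in choroidal ECs, 18.99 in heart, 12.3 in lung, 4.41 in neural retina and 1.63 in liver, and 3.28 in tissue. *Fosl2*, a subunit of the AP-1 transcription factor, averaged 73.6 FPKM in choroidal ECs, 11.7 in heart, 11.1 in neural retina, 10.7 in lung and 3.83 in liver, and 2.07 in tissue. *Nr4a2*, an immediate-early orphan nuclear receptor, averaged 32.9 FPKM in choroidal ECs, 4.91 in neural retina, 3.43 in lung, 1.71 in heart and 0.872 in liver, and 0.774 in tissue. The sorted ECs had been enzymatically dissociated and the tissue came from older mice of another strain, and the part of either in these ratios cannot be told apart.

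Their cluster levels differed. *Rasd1* was at 14.9 UMIs per 10,000 in smooth muscle and 3.51 in EC cluster 4, *Nr4a2* at 5.54 in smooth muscle, 5.40 in Schwann cluster 13 and 2.72 in EC cluster 4, and *Fosl2* at 1.37 in EC cluster 3 and 1.26 in smooth muscle with overlapping intervals. *Cxcl1* was at 13.5 in stromal cluster 8 (12.6 to 14.5) and at most 0.764 in an EC cluster. The other genes of smooth muscle were *Rrad*, a small GTPase of muscle (8.24 UMIs per 10,000, ratio to tissue 18.3), *Adamtsl1* (0.682, ratio 3.43) and *2210407C18Rik* (3.74, ratio 2.63). The Schwann class held *Aldh1a3*, a retinoic acid-producing dehydrogenase, at 0.817 UMIs per 10,000 in cluster 12 (0.529 to 1.21), and *Gm10941*, whose place in cluster 13 rested on 1 UMI.

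**Figure D5:**
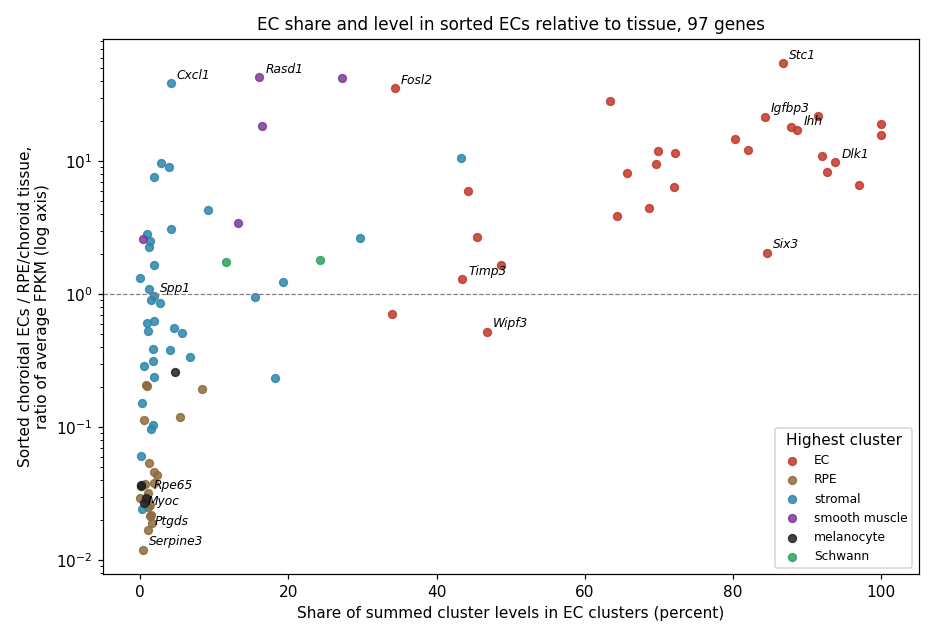
Share of summed cluster levels in EC clusters in B6129PF1/J (x axis, percent) against the ratio of the average FPKM in sorted choroidal ECs to that in RPE/choroid tissue (y axis, log scale), for 97 genes colored by class, with a dashed line at 1. RPE and melanocyte genes lie below the line at shares under 10%, 27 of 29 EC genes lie above it, all 5 smooth muscle genes lie above it, and stromal genes span both sides.

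Over all classes, 50 of 98 genes with a tissue value were higher in sorted ECs than in tissue. This was so for 27 of 29 EC genes, 15 of 36 stromal genes, 5 of 5 smooth muscle genes, 2 of 2 Schwann genes, 0 of 20 RPE genes and 0 of 5 melanocyte genes. The ratio of the choroidal average to the next EC bed had a median of 6.51 for smooth muscle genes and 7.94 for EC genes. It was 8.66 for Schwann genes, 9.92 for stromal genes, 14.9 for the 18 RPE genes with a next tissue and 43.2 for melanocyte genes. The Schwann median rests on 2 genes, and the melanocyte genes averaged at most 0.435 FPKM in any other tissue. Averages this low inflate a ratio, and the order of the classes was not tested with 0.1 FPKM added.

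Of the genes with at least 20 UMIs in both libraries, 7 changed class between the strains. *Fam101a* was highest in EC cluster 2 in B6129PF1/J (0.777 UMIs per 10,000) and in Schwann cluster 12 in C57BL/6J (0.954). *Sostdc1*, a secreted antagonist of BMP signaling, was at 8.82 in RPE and 6.60 in cluster 12 in B6129PF1/J, and at 7.45 and 10.7 in C57BL/6J. *Lgi1* was highest in stromal cluster 6 (1.22) in B6129PF1/J and in cluster 12 in C57BL/6J, *Gm266* in clusters 2 and 8, and *Sema5b* in clusters 6 and 2 on 25 and 22 UMIs. *Wipf3* and *Lrp3*, described with the EC genes, complete the 7.

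The other bulk tables of the series held averages of the same genes, again with 1 value per group of 3 libraries and no error. Deletion of *Ihh* from ECs (*Ihh* idEC/idEC) was made by the same *Cdh5*-driven Cre-ERT2 with floxed *Ihh*, and tissue was taken 12 weeks after tamoxifen by the labels. In RPE/choroid tissue, 7 of 83 genes with at least 1 FPKM in either group were at or below 0.5 of their *Ihh*+/+ average (8.43%, against 0.745% of all genes), namely *Gli1*, *Serpine3*, *Col10a1*, *Crispld1*, *Cldn11*, *Fbn2* and the targeted gene *Ihh*. *Ihh* averaged 1.53 FPKM in *Ihh*+/+ tissue and 0.454 after deletion. *Gli1* averaged 9.40 and 3.15 FPKM, *Col10a1* 4.90 and 1.31, and *Serpine3*, of the RPE class, 211 and 57.2. At or above 2-fold were 5 genes (6.02%, against 1.1%). They were *Penk*, which encodes the opioid precursor proenkephalin (7.43 and 23.3 FPKM), *Rasd1* (3.54 and 14.7), *Nr4a2* (0.774 and 4.30), *Fosl2* (2.07 and 9.76) and *Stc1* (1.11 and 3.15). The last 4 are also among the 5 genes with the highest ratio of sorted ECs to tissue, and the *Ihh*+/+ average enters both values.

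Cultured choroidal GLI1+ cells, from *Gli1*GFP/+ mice labelled as SWR/J background, a line that the study outcrossed to BALB/c, were treated for 24 h with DMSO or with 100 nM SAG, an agonist of the Hedgehog signal transducer Smoothened. With DMSO, 23 of 36 stromal genes, 11 of 29 EC genes and 11 of 20 RPE genes averaged at least 1 FPKM, against 57.6% of all genes in that table. *Igfbp5* averaged 230 FPKM and *Col8a1* 171, while *Ihh* was at 0.00933. With SAG, *Gli1* averaged 3.65 FPKM against 0.028 with DMSO and *Sostdc1* 11.6 against 5.57. Of 51 genes with at least 1 FPKM in either group, these were the 2 at or above 2-fold (3.92%, against 0.387% of all genes). *Crabp2*, a retinoic acid-binding protein gene, averaged 9.74 FPKM against 22.8 and was the 1 at or below 0.5 (1.96%, against 1.18%).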

How the data were processed

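Average FPKM values per tissue, genotype or treatment were deposited by the authors, who aligned reads to mm10 with STAR 2.4.0f1 and estimated FPKM with Cufflinks 2.0.2 after SAMtools 0.1.19. Deposited UMI counts per cell came from Cell Ranger, with filtering and clustering in Seurat 2.1. Cells under 1700 UMIs or 600 genes, or over 10% mitochondrial, were removed, and no doublet caller is stated in the sources used here. The study pooled a male and a female eye per strain and estimated the rate of doublets from *Xist* and *Ddx3y* found in the same cell. The deposited columns of fold changes and p-values were not used, and neither were the deposited cluster comparisons. Counts were summed per cluster and library and given per 10,000 UMIs of the cluster, with exact Poisson 95% intervals (SciPy 1.17.1), after the assignment had been tested on simulated data. A 0 in FPKM is written as listed at 0, and the depth behind FPKM is unknown. Positions came from GENCODE M21 on GRCm38, the assembly of mm10, and 52 of the 99 genes overlap another annotated gene.

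The members, marker lists and tests were chosen with earlier results of these data known. Named genes were the 12 highest in choroid, the 5 largest and 5 smallest ratios to the next tissue, the 4 highest per next tissue, the 5 highest per class, list members, class changes between libraries, the 5 lowest and 5 highest ratios to tissue, and *Ihh*, with others named after their values were seen (*A2m*, *Cldn11*, *Col8a2*, *Crabp2*, *Crispld1*, *Fap*, *Fbn2*, *Gip*, *Ins2*, *Myoc*, *Penk*, *Rrh*, *Six3*, *Six3os1* and *Snora28*). Results for 2 genes are not reported here, and counts over the members include them. No test between groups was made, because only averages or 1 library per group were read.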

Additional observations from a re-analysis of the deposited data

How the results depend on the processing

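Of the counts reported, those of genes highest outside EC clusters (68) stayed between 65 and 71 with the C57BL/6J library, both libraries summed, cells thinned to 1700 UMIs, mean log levels, at least 20 UMIs, 7 merged classes and intervals required to be apart. Genes with over 50% of their level in EC clusters (22) numbered 22 to 24 under the 4 alternatives. Genes higher in sorted ECs than in tissue (50) numbered 41 at a limit of 2-fold. Adding 0.1 FPKM to both averages cannot change which is higher, so it is no check of that count. Likewise, adding 0.1 FPKM to every average cannot change which tissue is next highest, so it does not check the counts by next tissue. Where the next tissue had to reach 0.1 FPKM, it was neural retina for 36, lung for 22, heart for 20 and liver for 2 genes. Required to be at least 2-fold above the third tissue, it was neural retina for 31, lung for 13, heart for 7 and liver for 1, since fewer genes remain. The median ratio to the next tissue fell from 10.7 to 7.98 with 0.1 FPKM added, 3.90 with 1 FPKM added and 8.49 where the next tissue had at least 0.1 FPKM. No paired analysis was possible because the tables of sorted ECs hold averages only, and for the same reason no library could be left out in turn.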
